A study of Mus musculus with 4 samples.

Results

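Nr2f1, Nr2f2, Emx1, Emx2, Sp8, Lhx2, Dmrta2 and Dmrt3 encode transcription factors that pattern the areas of the cerebral cortex, and they were followed in RNA sequencing of embryonic mouse brain from wild type embryos and from embryos with a conditional deletion of STING. These 8 genes were chosen by name, and all 8 were found once each among the 27293 named genes of the deposited count table. The study asked how loss of STING, an adaptor of innate immune signalling that acts upstream of NF-κB, changes the development of the cortex. RNA was taken at embryonic day 13 (E13) from telencephalic tissue of C57BL/6 mice, and 2 µg of total RNA went into each library. The 2 libraries labelled WT came from wild type embryos. The 2 libraries labelled cKO came from embryos with floxed STING alleles and Cre recombinase under the Nestin promoter, which is active mainly in neural progenitors, so that cells of other lineages such as blood and microglia are not its main target. The title of WT 2 has another form than that of WT 1 and holds the letters nes, which the labels do not explain. It was not possible to learn whether this embryo carried Cre. Each library is called by its label, with its replicate number.

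During the growth of the cortex, signals from its borders set up gradients of transcription factors across the sheet of progenitors, and these gradients later decide where motor and sensory areas form. FGF ligands from the anterior midline favour Sp8 and front identities. WNT and BMP ligands from the cortical hem, at the medial edge, favour Emx2, Lhx2, Dmrta2 and Dmrt3. Nr2f1 and Nr2f2, also known as COUP-TFI and COUP-TFII, favour posterior, ventral and sensory identities. Nr2f2 is also used in the caudal ganglionic eminence, the diencephalon, veins and mesenchyme, outside the cortex proper.

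The targeted gene appears in the table as Tmem173, its former name, with 20 and 19 reads in WT 1 and WT 2 and 18 and 22 reads in cKO 1 and cKO 2. Its log2 fold change of cKO over WT was 0.02, with a 95% interval from -1.02 to 1.06. Reads were counted over the whole gene and over all cells of the tissue. The loss of a floxed part in some cells may therefore not be visible here, which was not tested. In these libraries the genotype rests on the labels. The paper separately reports a Western blot in which STING protein differed between floxed control and cKO cortex at a later embryonic day. Library depth, as reads on genes, ran from 17209654 (WT 1) to 18533391 (WT 2). Levels are given in CPM, counts scaled to library size, after TMM normalization, which allows for differences in composition. Where 4 values follow each other without names, they stand for WT 1, WT 2, cKO 1 and cKO 2. Fold changes come from edgeR's quasi-likelihood test over the 16145 genes with enough reads.

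Markers of other tissues differed between the 4 libraries. Genes of the dorsal telencephalic progenitor list summed to between 2727 and 2958 CPM, led by Vim (802 to 912 CPM). Vim and several others of this list are not confined to dorsal cells, so the sum does not measure dorsal content alone. The 12 diencephalon and midbrain genes of the list that the table holds summed to 55.6, 37.1, 27.9 and 35.4 CPM. WT 1 stood apart in markers of the tissues around the cortex. It was the highest library for 14 of 14 meninges and mesenchyme genes, 9 of 9 choroid plexus genes and 8 of 9 blood genes. WT 1 was also highest for 16 of 18 genes of the cortical hem list, while it was highest for 25.1% of all genes tested. The meninges and mesenchyme genes summed to 340, 75.6, 103 and 58.1 CPM, with Col3a1 the most abundant gene. Reads of Uty, Kdm5d, Eif2s3y and Ddx3y, on the Y chromosome, summed to 0 in WT 2, while the other libraries had between 1848 and 3002. cKO 1 had the lowest summed level of ventral telencephalic genes. It was the lowest library for 13 of 15 ventral genes, while it was lowest for 27.3% of all genes tested. cKO 2 was the lowest library for 15 of 20 other patterning transcription factors, while it was lowest for 33.4% of all genes tested. Results are therefore given with all libraries and, where it matters, with single libraries left out. These fits differ in how many genes pass. An unadjusted p of at most 0.05 was reached by 199 of 16145 genes with all libraries, 126 of 16756 without WT 1, 649 of 16943 without WT 2, 2542 of 16915 without cKO 1 and 454 of 16985 without cKO 2.

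**Figure D1:**
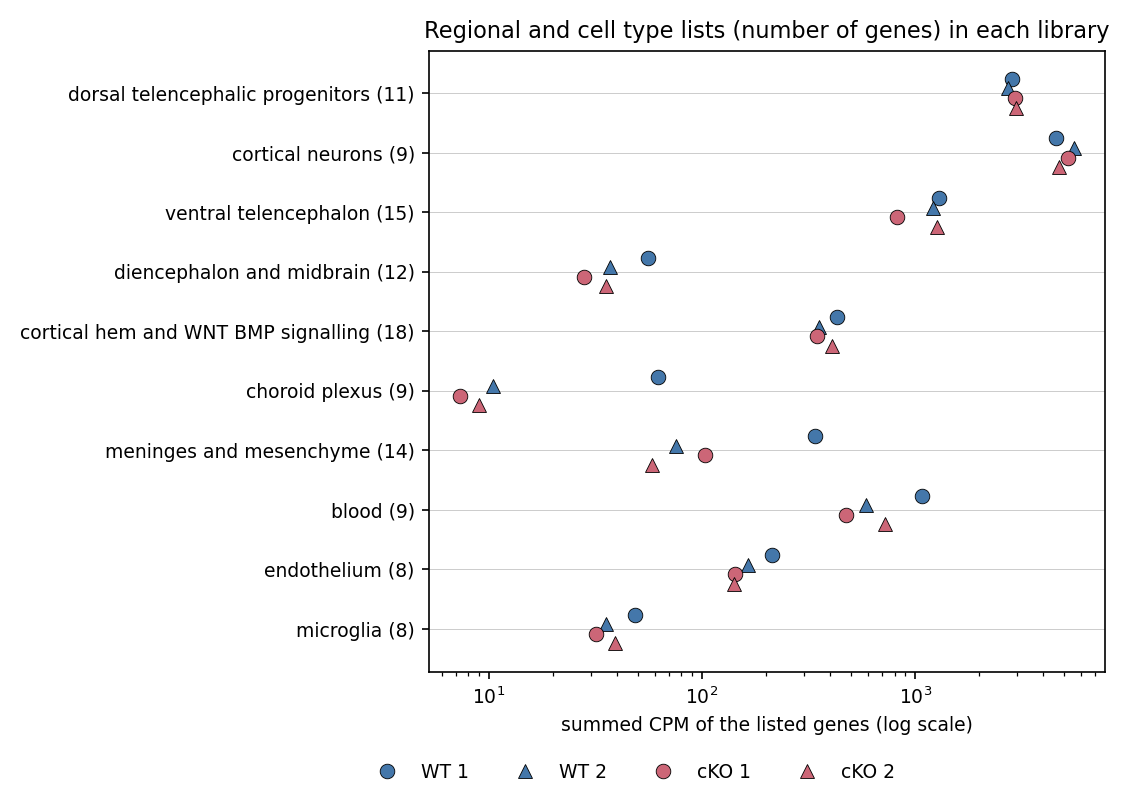
Summed level of each regional and cell type list in each library, in CPM on a log scale, with the number of listed genes in parentheses and 1 point per library. WT 1 stands to the right for choroid plexus (62.0 CPM) and for meninges and mesenchyme (340 CPM). cKO 1 stands to the left for ventral telencephalon (822 CPM). The dorsal telencephalic progenitor list, which also holds genes of progenitors in general, lies between 2727 and 2958 CPM in all 4 libraries.

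Between genes, levels were compared per kb of exon, since longer transcripts give more reads. Lhx2, which gives progenitors their cortical identity and holds back the hem, had the highest level with 108 ± 9.10 CPM per kb (SD, n = 4 libraries). Emx1, a marker of dorsal progenitors, followed with 53.6 ± 7.16, and Nr2f1 with 42.2 ± 6.31. The ranges of these last members overlapped, although Emx1 lay above Nr2f1 in each of the 4 libraries. Dmrta2 (27.4 ± 1.38 CPM per kb) and Emx2 (23.9 ± 3.81) could not be ordered, as Dmrta2 was the higher of them in 2 libraries of 4. Nr2f2 had 10.7 ± 3.03 CPM per kb and Dmrt3 had 6.97 ± 1.12, with overlapping ranges. Sp8 was lowest, with 4.30 ± 1.09 CPM per kb, and lay below Dmrt3 in each library. All 8 members were therefore well measured, the lowest count of any member in any library being 222 reads.

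None of the 8 members met the study's threshold, a fold change of at least 2 with an unadjusted p of at most 0.05, in edgeR's fit, while 0.811% of the 16145 genes tested did (131 genes). The threshold was met by 104 genes without WT 1, 476 without WT 2, 531 without cKO 1 and 121 without cKO 2, and by 0 members in each of these fits. At an unadjusted p of at most 0.05 with no fold threshold, 1 member passed, Nr2f2, beside 1.23% of all genes tested. DESeq2's Wald test gave the same counts, 0 members at the study's threshold and 1 at the unadjusted p alone, beside 65 and 127 of all 16145 genes. No member and no gene (0.0%) had an adjusted p under 0.05 in edgeR's fit, with p-values adjusted by Benjamini-Hochberg over all genes, where the smallest was 0.9999. That count of 0 genes was 7 without WT 1, 116 without WT 2, 105 without cKO 1 and 0 without cKO 2, with no member among them. With 2 libraries against 2, an exact permutation test of a single gene cannot give a two-sided p below 0.333. Libraries of the 2 labels did not overlap for 6 members. In Emx1, Lhx2, Dmrta2 and Dmrt3 both cKO libraries lay above both WT libraries, an order found in 11.0% of all genes tested. In Nr2f2 and Sp8 they lay below, an order found in 10.8%. The median log2 fold change was 0.13 over the members and -0.0094 over all genes tested. For 6 of the 8 members, all but Nr2f2 and Sp8, the 95% interval of the fold change held no change of 2-fold in either direction.

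**Figure D2:**
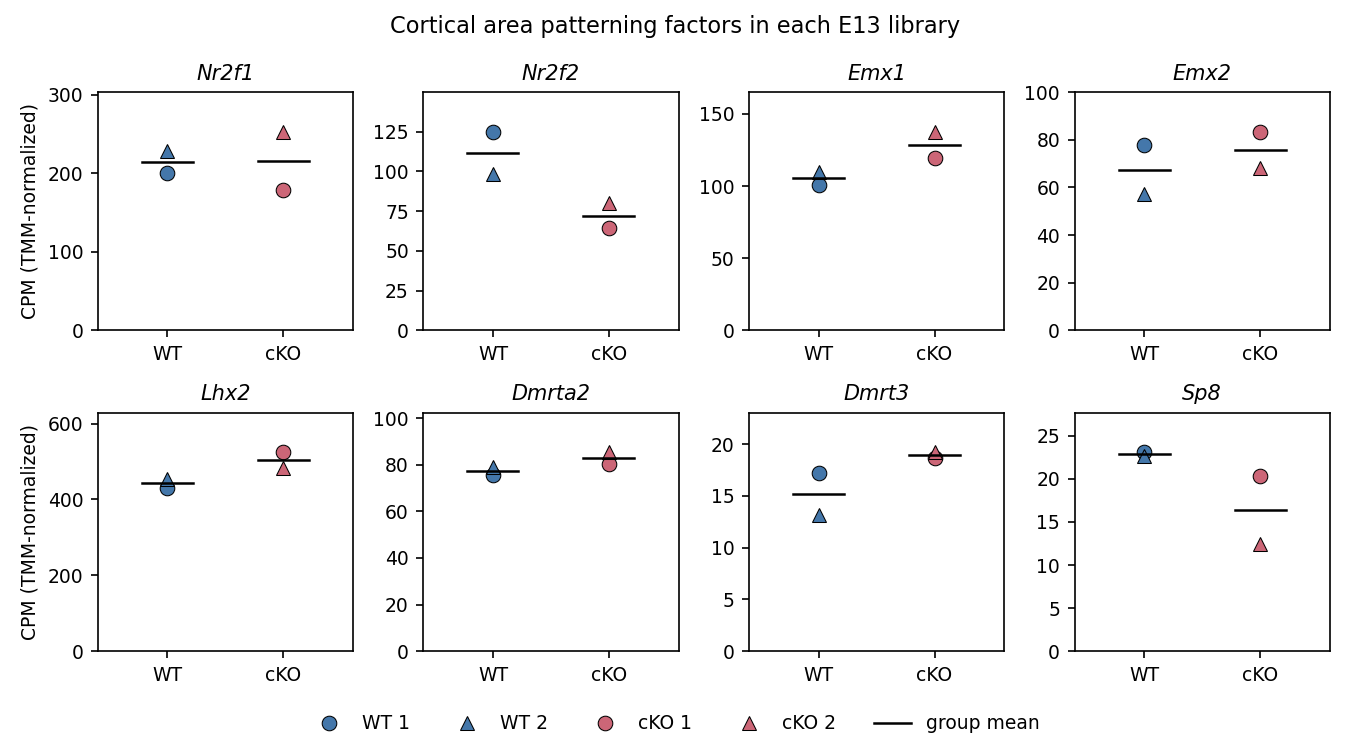
Level of each member in each library, in CPM after TMM normalization, with each axis starting at 0, WT in blue, cKO in red, circles for replicate 1, triangles for replicate 2 and a line at the group mean (n = 2). Nr2f2 runs from 98.5 to 125 CPM in WT and from 64.1 to 80.4 CPM in cKO, and the cKO libraries of Sp8 (20.3 and 12.4 CPM) lie further apart than its WT libraries (23.1 and 22.7 CPM).

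Nr2f2 (ENSMUSG00000030551, minus strand of chromosome 7, 70351944 to 70366735 in GRCm38) was the member with the largest difference. WT 1 and WT 2 had 2173 and 1813 reads (125 and 98.5 CPM), and cKO 1 and cKO 2 had 1173 and 1436 (64.1 and 80.4 CPM). The labels did not overlap, WT 1 being the highest library and cKO 1 the lowest. The mean was 112 ± 18.7 CPM in WT and 72.2 ± 11.5 CPM in cKO (SD, n = 2 each). This is 1.55-fold lower in cKO, or -0.63 on the log2 scale (standard error 0.18, 95% interval -1.05 to -0.20). The unadjusted p was 0.00924 in edgeR's quasi-likelihood test, and the adjusted p was 0.9999 after Benjamini-Hochberg adjustment over all genes. The size of the difference rested on the libraries at either end. Without WT 1 the log2 fold change was -0.45 and the unadjusted p rose to 0.155, so the gene no longer passed, and without cKO 1 it was -0.47. Without WT 2 it was -0.78 and without cKO 2 it was -0.79. A bulk measurement cannot tell fewer cells that express a gene from less RNA per cell, here and for every gene that follows.

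RNA of tissues outside the cortex proper differed between the same libraries. Among the 148 other list genes with at least 10 reads in every library, the profile nearest to that of Nr2f2 over the 4 libraries was Flt1, a VEGF receptor of endothelial cells, at a root mean square distance of 0.10 on the log2 scale. Flt1 had 484 and 366 reads in WT against 274 and 281 in cKO, and a log2 fold change of -0.64 (standard error 0.22). Of the 8 endothelial genes, 0 met the study's threshold, 2 (Flt1 and Cdh5, a vascular cadherin) had an unadjusted p of at most 0.05 and the median log2 fold change was -0.50, or -0.21 without WT 1, -0.77 without WT 2, -0.56 without cKO 1 and -0.33 without cKO 2. In the same order, 0, 3, 2 and 1 of the 8 had an unadjusted p of at most 0.05. Their summed level was 213, 165, 143 and 142 CPM, with the VEGF receptor gene Kdr as the most abundant and none at 0. The ventral genes summed to 1292, 1209, 822 and 1272 CPM in the same order, with Dlx1 most abundant, so cKO 1 was low in these as in Nr2f2. Choroid plexus genes summed to 62.0, 10.5, 7.32 and 8.95 CPM. The part of any of these tissues in the lower Nr2f2 was not tested.

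At the Nr2f2 locus a non-coding RNA, B130024G19Rik, runs on the opposite strand and shares 643 bases of exon with it, 7.46% of the exon length of Nr2f2. It had 102 and 83 reads in WT and 58 and 59 in cKO, which is -0.68 as a log2 fold change (standard error 0.32, 95% interval -1.41 to 0.05). Its cKO libraries also lay below its WT libraries. Whether strand was used in counting is not stated, so reads in the shared stretch could belong to either gene.

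Nr2f1 (ENSMUSG00000069171, chromosome 13, 78188973 to 78199757, minus strand), the paralog with a high posterior and lateral level in the cortex, showed no such difference. WT 1 and WT 2 had 3479 and 4195 reads, cKO 1 and cKO 2 had 3281 and 4520. cKO 1 was the lowest library and cKO 2 the highest, so the labels overlapped. The mean was 214 ± 19.6 CPM in WT and 216 ± 52.1 CPM in cKO (SD, n = 2 each), a log2 difference of 0.01 (standard error 0.19, 95% interval -0.43 to 0.46). Its sign turned to -0.08 without WT 1 and to -0.24 without cKO 2. Within a library, the log2 ratio of Nr2f1 to Nr2f2 does not depend on library size, and it was 0.68 and 1.21 in WT and 1.48 and 1.65 in cKO. The labels were thus apart, with means 0.62 apart on the log2 scale, against a gap of 0.53 between the WT libraries themselves. As Nr2f1 itself differed by 0.01, this ratio restates the difference of Nr2f2 (-0.63) and is no separate result. The antisense RNA A830082K12Rik shares 123 exon bases with Nr2f1 and had 658, 487, 622 and 395 reads and a log2 fold change of -0.20 (standard error 0.26). Of the list genes, Fgf18 was nearest in profile to Nr2f1, at a distance of 0.024.

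Emx1 and Emx2, homeobox genes of the dorsal telencephalon, had positive log2 fold changes with intervals that include 0. Emx1 (ENSMUSG00000033726, chromosome 6, 85187438 to 85204462, plus strand) had 1758 and 2025 reads in WT (101 and 110 CPM) and 2183 and 2460 in cKO (119 and 138 CPM). The cKO libraries both exceeded the WT libraries. The log2 fold change was 0.28 (standard error 0.15, 95% interval -0.07 to 0.63), and ran from 0.19 without cKO 2 to 0.39 without cKO 1. In that last fit its unadjusted p was 0.0134, while 2542 of 16915 genes had one of at most 0.05. Emx2 (ENSMUSG00000043969, chromosome 19, 59458372 to 59465357, plus strand) had 1351 and 1054 reads in WT and 1526 and 1222 in cKO. Its labels overlapped, since WT 1 lay above cKO 2. The log2 fold change was 0.17 (standard error 0.19, 95% interval -0.28 to 0.62), falling to -0.021 without WT 2. Emx2os, which runs against Emx2 and shares 264 exon bases with it, had 270, 183, 229 and 168 reads, with a log2 fold change of -0.22 (standard error 0.29). Set against each other, Emx1 and Emx2 had a log2 ratio of 0.38 in WT 1 and 0.52 in cKO 1 but 0.94 in WT 2 and 1.01 in cKO 2, which parts the replicate numbers and not the labels. In profile Emx1 was nearest to Sfrp2, a WNT antagonist of the antihem, at a distance of 0.036, and Emx2 to Dmrt2 at 0.055.

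Lhx2, Dmrta2 and Dmrt3, which act in medial and posterior progenitors, were higher in both cKO libraries by margins within their intervals. Lhx2 (ENSMUSG00000000247, chromosome 2, 38339281 to 38369733, plus strand) had 7498 and 8364 reads in WT and 9584 and 8647 in cKO, and a log2 fold change of 0.19 (standard error 0.15, 95% interval -0.16 to 0.54). The antisense genes Gm13584 and Gm27197 lie within its span, share no exon base with it and had between 42 and 83 reads. Dmrta2 (ENSMUSG00000047143, chromosome 4, 109978053 to 109983687, plus strand) had the smallest spread of the 8 over the 4 libraries, with 1313, 1457, 1471 and 1524 reads. Its log2 fold change was 0.10 (standard error 0.14, 95% interval -0.23 to 0.43). Dmrt3 (ENSMUSG00000042372, chromosome 19, 25610537 to 25623920, plus strand) had 299, 242, 341 and 343 reads, and a log2 fold change of 0.32 (standard error 0.21, 95% interval -0.18 to 0.81). WT 2 was its lowest library, and leaving WT 2 out gave 0.15 where leaving WT 1 out gave 0.52. In profile Dmrt3 was nearest to Dmrta2os, the divergent RNA of Dmrta2, at a distance of 0.052. That RNA had 164, 139, 177 and 186 reads and a log2 fold change of 0.24. Lhx2 was nearest to Eomes, a factor of intermediate progenitors, at 0.026, and Dmrta2 to Fabp7, a radial glial gene, at 0.023. Dmrta2 over Dmrt3 gave log2 ratios of 2.13 and 2.59 in WT and 2.11 and 2.15 in cKO, and Lhx2 over Pax6 gave 1.72 and 1.87 in WT and 1.75 and 2.03 in cKO. Both ratios overlapped between the labels.

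Sp8 (ENSMUSG00000048562, chromosome 12, 118846329 to 118852576, plus strand) is the member with an anterior gradient, a zinc finger factor that maintains FGF signalling at the front of the telencephalon and is also used in ventral progenitors. WT 1 and WT 2 had 401 and 418 reads, cKO 1 had 371 and cKO 2 had 222. The WT libraries were alike and cKO 1 lay close below them, while cKO 2 stood apart. The mean was 22.9 ± 0.256 CPM in WT and 16.3 ± 5.55 CPM in cKO (SD, n = 2 each), a log2 difference of -0.48 (standard error 0.25, 95% interval -1.07 to 0.10). The unadjusted p was 0.0940 in edgeR's test. With replicate number as a block, the log2 difference was -0.52 and edgeR's unadjusted p was 0.0305. In that fit 535 of 16145 genes had a p of at most 0.05. With no filter beyond 1 count, edgeR's unadjusted p was 0.0444, where 758 of 27293 genes had one of at most 0.05. The log2 difference belonged largely to 1 library, being -0.16 without cKO 2 and -0.88 without cKO 1. There the unadjusted p was 0.00161, in the fit where 2542 of 16915 genes and 3 of 8 members had one of at most 0.05. In profile Sp8 was nearest to Spred1, an inhibitor of FGF signalling, with 1210, 1128, 1163 and 657 reads, at a distance of 0.080. As a measure of posterior against anterior factors, the log2 ratio of Emx2 to Sp8 was 1.75 and 1.33 in WT and 2.04 and 2.46 in cKO. The means differed by 0.71, and the larger gap within a label was 0.42. For Nr2f1 over Sp8 it was 3.12, 3.33, 3.14 and 4.35, and only cKO 2 departed from the rest. cKO 2 was also the lowest library for most other patterning factors, as given above. The part of what sets cKO 2 apart in the Sp8 value was not tested.

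**Figure D3:**
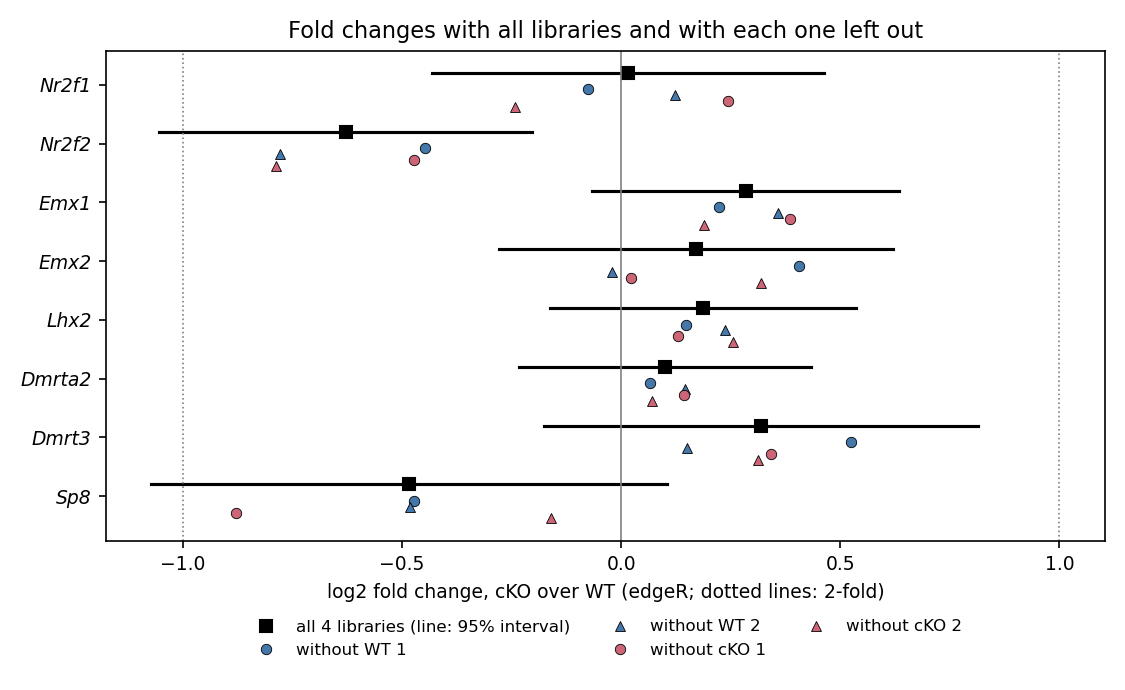
Log2 fold change of cKO over WT for each member from edgeR's fit, with all 4 libraries (squares, lines for the 95% interval) and with each library left out (coloured points), and dotted lines at a change of 2-fold. Nr2f2 lies between -0.79 and -0.45 whichever library is left out, Sp8 moves from -0.88 without cKO 1 to -0.16 without cKO 2, and the other members lie between -0.24 and 0.52.

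Other transcription factors that pattern the cortex stood close to the median of all genes. Of 20 tested, 0 met the study's threshold in either direction in edgeR's fit, 1 had an unadjusted p of at most 0.05 in edgeR and in DESeq2, and the median log2 fold change was -0.10. That median was -0.09 without WT 1, -0.02 without WT 2, -0.15 without cKO 1 and 0.0091 without cKO 2. In the same order, 0, 1, 2 and 0 of 20 met the threshold and 0, 3, 6 and 3 had an unadjusted p of at most 0.05. The exception with all libraries was Etv1, a target of FGF signalling, with 553 and 535 reads in WT, 435 and 268 in cKO and a log2 fold change of -0.65 (standard error 0.24, 95% interval -1.21 to -0.09). As in Sp8, the labels were apart and cKO 2 was lowest. Etv4, of the same ETS family, had the largest size of log2 fold change, -0.68 (standard error 0.44), with overlapping labels. Meis2, the most abundant, had a log2 fold change of -0.0077, and Tbr1, a factor of deep layer neurons, had -0.11. With all libraries, paralogs of the members did not pass either. Of 6 tested, 0 met the threshold, 0 had an unadjusted p of at most 0.05 and the median was -0.13. That median turned to 0.15 without WT 1, again over 6 genes. Over 7 genes, with Dmrt1 added, it was 0.09 without cKO 1, -0.14 without WT 2 and -0.19 without cKO 2. Sp9 had 850, 1101, 633 and 1105 reads and a log2 fold change of -0.17, Lhx9 had -0.19, and Sp5 had the largest size, -0.39 (standard error 0.57). Dmrt1, with 5 to 10 reads, was too low to be tested with all libraries or without WT 1. Dmrt2 had 20 to 27 reads.

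The signalling centres that set the members' gradients were measured beside them. Of the anterior FGF list, 0 of 13 tested genes met the threshold, 0 had an unadjusted p of at most 0.05 in edgeR, 1 in DESeq2, and the median log2 fold change was -0.27. Without WT 1 the median was -0.06 and 1 of 13 met the threshold, and without WT 2 it was -0.36 and 2 of 14 met it. Without cKO 1 it was -0.19 and without cKO 2 it was -0.13, with 0 of 14 at the threshold in both. In 11 of the 14 listed genes, WT 1 was highest, beside 25.1% of all genes tested. Fgf8, the anterior ligand itself, had 16, 0, 8 and 1 reads and was not tested with all libraries or without WT 1. It was the gene added in the fits with 14 genes. It had enough reads only in WT 1, where it was highest, so its own value there is no independent result. The medians and counts over 14 genes are therefore over another set than those over 13. Fgf17 had 132, 20, 76 and 38 reads. These ligands therefore varied within a label more than between labels. Spry1, a feedback inhibitor, had the largest size of log2 fold change in this list, -0.78 (standard error 0.38), and this was -0.06 without WT 1. The receptors Fgfr3 (0.18) and Fgfr1 (0.0035) had the highest levels. At the cortical hem, 0 of 17 tested genes met the threshold or had an unadjusted p of at most 0.05 in edgeR or DESeq2, and the median was -0.81. These counts depended on the libraries. Without WT 1 the median turned to 0.48 and 2 of 17 met the threshold. Without WT 2 it was -1.44, and of 18 genes tested 12 met the threshold, 13 had an unadjusted p of at most 0.05 and 7 had an adjusted p under 0.05. Without cKO 2 it was -1.05 and 2 of 18 met the threshold, and without cKO 1 it was -0.72 and 0 of 18 did. The gene added in the fits with 18 genes was Msx2, with 21, 1, 1 and 2 reads. It had enough reads only in WT 1, where it was highest, so its own value there is no independent result. Wnt3a, the defining ligand of the hem, had 72, 6, 6 and 20 reads and a log2 fold change of -1.61 (standard error 1.01). The hem genes thus differed between the WT libraries themselves. Wnt7b (0.19) and Axin2 (-0.10), which are not confined to the hem, had the highest levels. In the antihem list 0 of 6 met the threshold, 0 had an unadjusted p of at most 0.05 and the median was -0.12, running from -0.35 without cKO 1 to 0.0026 without cKO 2. Its largest value was Fgf7, with 22, 23, 9 and 12 reads and a log2 fold change of -1.10 (standard error 0.48), while Sfrp2 (0.23) and Nrg1 (0.14) had the highest levels.

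Genes that the cortex later expresses in area-specific or graded patterns, such as cadherins and ephrin receptors, were tested in the same way. Of 12 tested with all libraries, 0 met the threshold, 0 had an unadjusted p of at most 0.05 in edgeR or DESeq2, and the median log2 fold change was -0.20, or 0.03 without cKO 2. Without cKO 1 the median was -0.34, and 4 of 12 had an unadjusted p of at most 0.05 and 2 an adjusted p under 0.05. Epha5, the most abundant, had 2569, 2845, 3170 and 1582 reads, again low in cKO 2, with a log2 fold change of -0.21. Id2 had 0.06, and Cdh11 had the largest size, -0.38 (standard error 0.19). Of the 3 antisense and divergent RNAs tested, 0 met the threshold, 0 had an unadjusted p of at most 0.05 and the median was -0.20. That median turned to 0.14 without WT 1 and 0.10 without cKO 2, and was -0.42 without WT 2 and -0.43 without cKO 1. Lhx2os and Gm5106 were not found under those names among the counted genes, so they were not analysed here. DESeq2 called 0 genes at the threshold in each of these lists.

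Among genes of the cortical cell classes that carry the members, none passed with all libraries. Of 11 genes listed for dorsal telencephalic progenitors, some of which mark progenitors in general, 0 met the threshold and 0 had an unadjusted p of at most 0.05. The median log2 fold change was 0.07, with Vim (0.07) and Nes (0.17) most abundant and Eomes (0.20) of largest size. That median was 0.09 without WT 1, 0.04 without WT 2, 0.07 without cKO 1 and 0.02 without cKO 2. The summed level of these progenitor genes was 2846, 2727, 2939 and 2958 CPM. Of 9 cortical neuron genes, 0 met the threshold, 0 had an unadjusted p of at most 0.05 and the median was -0.0013, with Tubb3 (0.05) and Dcx (-0.30) most abundant and Neurod1 (-0.35) of largest size. Without cKO 1, 3 of these 9 had an unadjusted p of at most 0.05 and the median was -0.24, while it was 0.15 without cKO 2. Of 15 ventral genes, 0 met the threshold, 1 (Gad1, the enzyme that makes GABA) had an unadjusted p of at most 0.05, and the median was -0.18. Without cKO 1 the median was 0.08 and 3 of 15 had an unadjusted p of at most 0.05, and without cKO 2 it was -0.53, 10 of 15 had such a p and 2 met the threshold. Without WT 1 it was -0.15 and 0 of 15 met the threshold, and without WT 2 it was -0.23 and 1 of 15 did. Dlx1 (-0.28) and Dlx2 (-0.17) were the most abundant, and Nkx2-1, a factor of the medial ganglionic eminence, had 1407, 1035, 262 and 1166 reads and a log2 fold change of -0.79 (standard error 0.56). Dorsal against ventral, the log2 ratio of Emx1 to Dlx2 was -0.83 and -0.67 in WT and 0.06 and -0.54 in cKO. The labels did not overlap, but their means differed by 0.50, less than the gap of 0.60 between the cKO libraries, and cKO 1 stood farthest from the rest.

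Among the listed genes, those that met the threshold with all 4 libraries belong to tissues around the cortex, all of them lower in cKO and all highest in WT 1. Of 4 tested choroid plexus genes, 4 met it, with a median log2 fold change of -2.996. These were Aqp1 (-2.66), Htr2c (-3.44), Kcne2 (-3.33) and Otx2 (-1.33). Htr2c had 101 and 18 reads in WT and 4 and 7 in cKO. It had enough reads to be tested only through WT, where it was high, so its call is not independent of the filter. With all libraries DESeq2 called 3 of 4. Without WT 1 the median over 4 genes was -0.49. In each fit that kept WT 1 but left out another library, 7 genes were tested. Their median was -4.16 without WT 2, -3.08 without cKO 1 and -2.89 without cKO 2. The added genes were highest in WT 1 and were not tested without it, so these medians are over another set than -2.996. Folr1 and Kcnj13 were at 0 in 1 library each, and Ttr and Clic6, read only in the table of WT 1 and cKO 1, had 5071 and 526 reads in WT 1 and 23 and 2 in cKO 1. Otx2 is listed under the diencephalon and midbrain too, where it was 1 of 6 tested genes to meet the threshold (median -0.31, or -0.15 without cKO 1 and -0.69 without cKO 2; 0 of 6 met it without WT 1 or without cKO 1), and where Tcf7l2 (-0.24) and Barhl2 (-0.34) were most abundant. Of 10 tested meninges and mesenchyme genes, 2 met it, Col1a1 (-2.08) and Col1a2 (-1.59), while Col3a1 had -1.29 and the median was -1.24. Without WT 1, 0 of 10 met it and the median was 0.21, and DESeq2 also called 0 of 10. Without WT 2 the median was -2.17, without cKO 1 it was -1.79 and without cKO 2 it was -1.21, each over 14 genes. The genes added in these fits were highest in WT 1, as all 14 were, so these medians are over another set than -1.24. Of 9 blood genes 0 met it, 0 had an unadjusted p of at most 0.05 and the median was -0.37, with Hbb-y (-0.68) and Hba-a1 (-0.42) most abundant. That median was 0.0075 without WT 1, -0.68 without WT 2, -0.09 without cKO 1 and -0.76 without cKO 2. In the same order, 0, 2, 0 and 1 of 9 met the threshold and 0, 4, 0 and 5 had an unadjusted p of at most 0.05. Of 8 microglial genes 0 met it, 0 had an unadjusted p of at most 0.05 and the median was -0.15 (0.05 without WT 1, 0.06 without cKO 1, -0.32 without WT 2 and -0.42 without cKO 2), with Csf1r (-0.47) and Cx3cr1 (-0.18) most abundant and Tyrobp (-0.56) of largest size.

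Promoter windows of 300 bases were searched for short motifs, because NF-κB acts downstream of STING and the members bind DNA themselves. RefSeq windows on GRCm38.p6, which reach from upstream of a transcript's start to just past it, matched all 8 members with 12 windows, and both strands were read. The consensus of NF-κB, known as the κB site, was found in 8.46% of all 32851 windows and in 2 of the 12, in Dmrta2 and in the window inside the Lhx2 gene. AGGTCA, the core site of nuclear receptors such as Nr2f1 and Nr2f2, was found in 16.3% of all windows and in 1 of 12, in Sp8. TAATTA, a palindrome bound by homeodomain factors, was found in 5.29% and in 2 of 12, in Emx2 and Sp8. GGGCGG, the GC box of Sp factors, was found in 35.7% and in 5 of 12. The motifs did not overlap in the windows printed here. Shown are Nr2f2, as the member with the largest difference, and Dmrta2, as the member with a κB match (in capitals) in the window of its annotated start. The window of Nr2f2 held none of the 4 motifs, which says only that these letters are not in this stretch. A match is a description and not a bound site.
Nr2f2, chr7:70366697-70366996, minus strand: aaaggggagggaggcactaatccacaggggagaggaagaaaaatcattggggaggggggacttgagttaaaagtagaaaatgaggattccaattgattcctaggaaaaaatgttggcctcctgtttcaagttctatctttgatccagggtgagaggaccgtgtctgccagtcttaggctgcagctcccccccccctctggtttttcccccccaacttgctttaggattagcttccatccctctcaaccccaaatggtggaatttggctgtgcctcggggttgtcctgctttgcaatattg
Dmrta2, chr4:109977775-109978074, plus strand: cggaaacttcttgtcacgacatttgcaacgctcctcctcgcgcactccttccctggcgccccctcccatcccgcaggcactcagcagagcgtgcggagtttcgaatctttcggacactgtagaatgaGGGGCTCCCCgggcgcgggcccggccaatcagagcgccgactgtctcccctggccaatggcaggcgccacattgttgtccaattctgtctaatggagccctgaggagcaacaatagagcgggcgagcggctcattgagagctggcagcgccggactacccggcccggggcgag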

How the data were processed

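The authors deposited raw counts of reads per gene for 4 libraries. The submitters' processing notes name TopHat2 2.0.12, Bowtie2 2.2.3, HTSeq 0.6.0 and mm9, but 97.2% of 27232 gene positions lie within 1 base of GENCODE M21 on GRCm38, so positions and exon lengths were read on GRCm38. Strand use in counting is not stated. Of 27304 rows, 11 (0.0403%) were blank and left out. Counts were analysed with edgeR 4.0.16 in R 4.3.3 (TMM, filterByExpr, quasi-likelihood test, no covariate), with Benjamini-Hochberg adjustment over all genes tested, and with DESeq2 1.42.0 as an alternative. Standard errors are the log2 fold change over the square root of F, and intervals are 95%. A fit without 1 library leaves a label with 1 library, which is assumed to vary like the others. The labels name no separate litters, so p-values measure the spread between these libraries. A count of 0 allows up to 3 reads, or 0.162 to 0.174 CPM, by counting error only. The procedure was tested on simulated data. The members and lists were chosen with earlier results of these data known. Named genes are the members, list genes at the study's threshold, the 2 most abundant and the 1 of largest fold change per list, and the nearest profile of each member. A gene that this rule names is not reported here. Etv1, Fgf8, Fgf17, Msx2, Dmrt1, Gad1 and the overlapping, Y-linked and choroid plexus genes beyond that rule were named after their values were seen.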

Additional observations from a re-analysis of the deposited data

How the results depend on the processing

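The count of 0 members at the study's threshold was the same under RLE and upper-quartile normalization, DESeq2, no filter beyond 1 count, a minimum of 10 counts throughout, a replicate block and each library left out, and was 1 with no fold threshold. No member had an adjusted p under 0.05 in any of these fits, while the count of all genes with one, 0 in the main fit, was 65 with no filter, 5 with the replicate block and 0 to 116 with a library left out. Of 80 fold changes of members under 10 other settings, 76 kept their direction. Nr2f1 turned to -0.24 and -0.08 with a library left out (range -0.24 to 0.24) and to -0.0032 with the replicate block. Emx2 ran from -0.021 to 0.41 with a library left out, Emx1 from 0.19 to 0.39, Dmrt3 from 0.15 to 0.52, Nr2f2 from -0.79 to -0.45 and Sp8 from -0.88 to -0.16. For Sp8 the unadjusted p fell to at most 0.05 with no filter (-0.48), with the replicate block (-0.52) and without cKO 1 (-0.88), and for Emx1 without cKO 1 (0.39), where 2542 of 16915 genes had such a p. Of all genes, 758 of 27293 had such a p with no filter and 535 of 16145 with the replicate block, against 199 of 16145 in the main fit. The cause of these changes was not tested. The count of all genes at the threshold (131) was 405 with no filter, 72 with at least 10 counts, where fewer genes were tested, 65 with DESeq2, 208 with the replicate block and 104 to 531 with a library left out. Replicate numbers are shared between the labels, but no source ties them to litters, and across 16145 genes the deviations of WT 1 and cKO 1 from their label means had a correlation of 0.139. With 2 libraries per label, differences under 2-fold are hard to tell from the spread. The list medians and counts without each library were added after the data were seen.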
